A study of Rattus norvegicus with 29 samples.

Results

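The miR-192, miR-194 and miR-215 family was followed in rat plasma 48 h after traumatic brain injury (TBI) or sham surgery. Members were the names in the miRNA count table whose stem, after removal of the species prefix, was exactly miR-192, miR-194 or miR-215 on any arm. This rule found 5 of 754 miRNAs, namely rno-miR-192-5p, rno-miR-192-3p, rno-miR-194-5p, rno-miR-194-3p and rno-miR-215, the last of which carries no arm in its name. The rule used names alone and no measured value. All 5 passed the filter on low counts and none had to be set aside.

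The plasma came from 29 adult male Sprague-Dawley rats studied at the University of Eastern Finland (UEF), Monash University (Monash) and the University of California Los Angeles (UCLA). TBI was induced by lateral fluid percussion under isoflurane, and sham rats had the same surgery without the impact. Injured rats were divided by later video-EEG into those without epilepsy (TBIN) and those with epilepsy (TBIE), so that each TBI group below joins TBIN and TBIE unless stated. UEF contributed 4 sham, 4 TBIN and 4 TBIE rats, Monash 3 sham, 3 TBIN and 2 TBIE rats, and UCLA 3 sham, 3 TBIN and 3 TBIE rats. Each rat gave 1 small RNA library from tail vein K2EDTA plasma. Per the methods, rats came from a different source at each site, pellets differed, and UCLA rats received flunixin meglumine and medicated chow where UEF and Monash rats received buprenorphine, so that site cannot be told apart from these conditions.

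The hairpins of miR-192 and miR-194 are transcribed together in vertebrate genomes, and a second cluster carries miR-194 with miR-215. The family is abundant in hepatocytes and in the epithelium of the intestine and kidney, its transcription responds to HNF transcription factors and to p53, and miR-192 is studied in blood together with miR-122, the dominant hepatocyte miRNA, as a measure of RNA released from liver. Plasma pools RNA from all tissues, and fewer cells of a type cannot be told apart from less RNA per cell.

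The mature sequences are shown because 2 members share a seed and 1 member has 2 source genes, which bears on how each count can be read. Capitals mark the seed, bases 2 to 8 from the 5′ end, and the sequences and positions are those of RefSeq on GRCr8, where all 5 names matched.
rno-miR-192-5p: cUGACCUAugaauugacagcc
rno-miR-215: aUGACCUAugauuugacagaca
rno-miR-194-5p: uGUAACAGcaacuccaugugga
rno-miR-192-3p: cUGCCAGUuccauaggucacag
rno-miR-194-3p: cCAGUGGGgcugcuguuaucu

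miR-192-5p and miR-215 were the only 2 of 693 mature rat miRNAs in RefSeq with the seed UGACCUA, and 18 of the 21 bases of miR-192-5p were identical in miR-215. The differences, counted from 1 at the 5′ end with the base of miR-192-5p first, were C1A, A12U and C20A. These 3 mismatches separate the mature sequences of both members, and the number of mismatches allowed in the annotation is not given in the sources used here. miR-192-3p shared its seed with rno-miR-3084c-3p, and the seeds of miR-194-5p and miR-194-3p occurred in no other of these 693 mature miRNAs.

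The Mir192 hairpin lies at chr1:212994209-212994318 on the plus strand, 100 bases after Mir194-2 at chr1:212994024-212994108. The Mir215 hairpin lies at chr13:99382990-99383086, also on the plus strand, 191 bases after Mir194-1 at chr13:99382716-99382798. miR-194-5p has the same sequence in Mir194-1 and Mir194-2, so its count sums both clusters. miR-194-3p as printed belongs to Mir194-2, so miR-192-5p, miR-192-3p and miR-194-3p represent the cluster on chromosome 1 and miR-215 the cluster on chromosome 13.

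Total miRNA counts ranged from 1162307 to 5223469 per rat (median 2713557). Levels are given as CPM, which are counts scaled to a common library size after TMM normalization, and fold changes on the log2 scale with their standard error (SE). One library stood apart. In UEF sham 3, miR-122-5p took 55.1% of all counts, the TMM factor was 0.333 and the total was the highest of the 29, so that its CPM values were scaled up and its miR-122-5p level came to 1652514 CPM. Results that rest on this rat are given with and without it, and shares of total counts, which do not use TMM, are given beside the main result.

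The members together made up 0.426% to 3.09% of the miRNA counts of a rat (median 0.918%). By mean count miR-192-5p ranked 21 of 754, miR-215 ranked 47, miR-194-5p ranked 71, miR-192-3p ranked 257 and miR-194-3p ranked 499. miR-192-5p had 5835 to 127497 counts per rat and miR-194-3p 21 to 154, so that the level of miR-194-3p was measured with the least precision. The mature lengths were 21 or 22 bases, and read counts of different miRNAs also depend on ligation, so levels below compare rats rather than molecules.

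The first comparison asked whether injury changed the level of the family in plasma at 48 h. Over all rats, miR-194-5p was lower in TBI than in sham rats, and it was the only member past the threshold in edgeR. DESeq2 called 4 members lower, against 3.75% of the 640 miRNAs to which it gave an adjusted p. In sham rats (n = 10) the level of miR-194-5p ranged from 283 to 11426 CPM, and in TBI rats (n = 19) it ranged from 288 to 1373 CPM. The ranges overlapped, and the 4 highest of the 29 levels were those of the UEF sham rats. With site in the model, miR-194-5p was 2.86-fold lower in TBI rats (log2 −1.52, SE 0.38, edgeR adjusted p = 0.0367). Of 751 miRNAs tested, 1.20% passed the threshold, and miR-194-5p had the sixth lowest p of them.

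The other arms and miR-215 did not pass in edgeR, whereas in DESeq2 miR-192-5p (log2 −1.19, adjusted p = 0.0104), miR-192-3p (log2 −0.91, adjusted p = 0.0174) and miR-194-3p (log2 −0.74, adjusted p = 0.0247) passed as well. The edgeR values follow. miR-192-5p differed by log2 −1.14 (SE 0.32, 95% interval −1.79 to −0.50, edgeR adjusted p = 0.0746) and miR-192-3p by log2 −0.87 (SE 0.25, adjusted p = 0.0800). The difference was log2 −0.69 for miR-194-3p (SE 0.21, adjusted p = 0.107) and log2 −0.44 for miR-215 (SE 0.28, adjusted p = 0.629). The median over the 751 miRNAs was log2 0.03. miR-122-5p, the liver reference, was lower by log2 −1.65 (SE 0.42, adjusted p = 0.0379). Without UEF sham 3 the difference of miR-194-5p was log2 −0.94 with an adjusted p of 0.116, and no member passed, against 0.667% of 750 miRNAs. With the UEF rats left out it was log2 −0.36 with an adjusted p of 0.939.

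**Figure D1:**
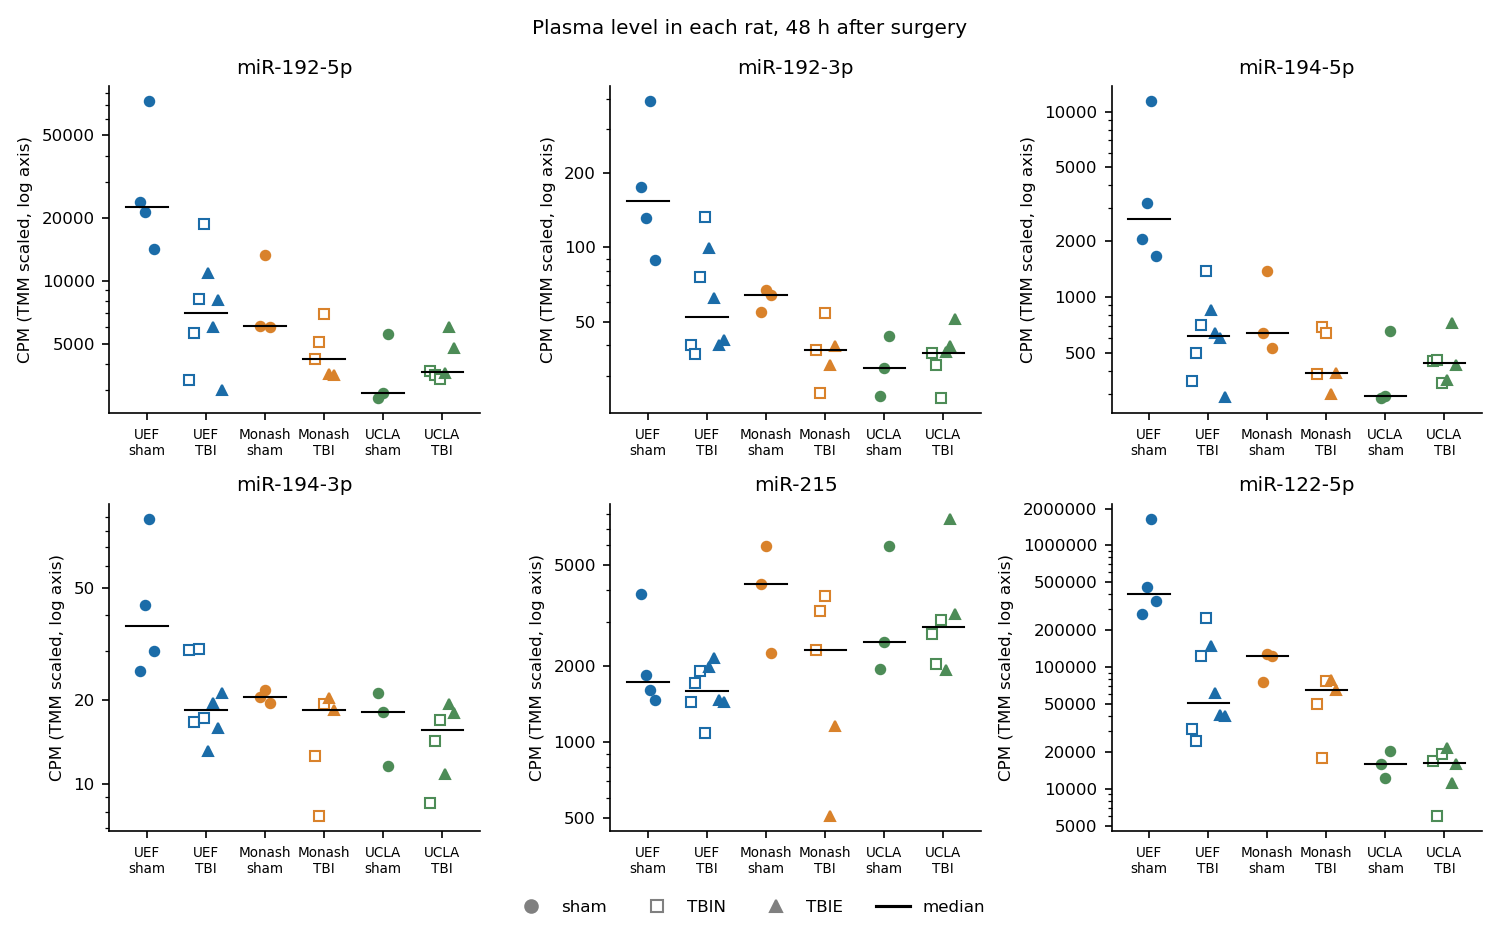
Level of each member and of miR-122-5p in each of the 29 rats, as CPM on log axes that differ in range between panels, by site and injury. Circles are sham, open squares TBIN and triangles TBIE rats, and lines are group medians. For miR-194-5p the 4 UEF sham rats, at 1665 to 11426 CPM, lie above all 8 UEF TBI rats, at 288 to 1373 CPM.

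Within sites, members passed at UEF alone, and the test of that difference between sites, given below, passed for miR-194-5p alone, in a call that most alternatives ended. At UEF, 4 of the 5 members were lower in TBI than in sham rats, against 3.85% of 754 miRNAs called in either direction in the fit with a separate TBI effect for each site. miR-194-5p showed the lowest p of all 754. Its level was 2046, 3205, 11426 and 1665 CPM in UEF sham 1 to 4, and in the 8 UEF TBI rats the lowest was 288, the median 615 and the highest 1373 CPM. Every UEF TBI rat was below every UEF sham rat. How many of all miRNAs separated the groups in this way, here or at Monash and UCLA, was not counted. The mean in TBI rats (663 ± 340 CPM, SD, n = 8) was 14.4% of that in sham rats (4585 ± 4607 CPM, n = 4), and 28.7% without UEF sham 3. The fitted difference was log2 −2.79 (SE 0.42, 95% interval −3.65 to −1.93, edgeR adjusted p = 0.000194), which is 6.92-fold.

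miR-192-5p, from the same cluster as Mir194-2, followed. Its level was 23853, 21400, 73233 and 14171 CPM in UEF sham 1 to 4, and in UEF TBI rats the lowest was 2987, the median 7036 and the highest 18773 CPM. Of 8 TBI rats, 7 were below all sham rats, and UEF TBIN 4 lay above UEF sham 4. The difference was log2 −2.05 (SE 0.40, edgeR adjusted p = 0.00113), which is 4.15-fold.

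The 3p arms moved in the same direction. miR-192-3p was at 175, 131, 392 and 88.8 CPM in UEF sham 1 to 4 and between 36.9 and 132 CPM (median 52.2) in UEF TBI rats, 6 of which were below all sham rats. It differed by log2 −1.57 (SE 0.33, adjusted p = 0.00243). miR-194-3p was at 25.3, 43.5, 88.5 and 30.0 CPM in UEF sham 1 to 4 and between 13.2 and 30.3 CPM (median 18.4) in UEF TBI rats. For miR-194-3p as well, 6 of 8 TBI rats were below all sham rats, and the difference was log2 −1.18 (SE 0.30, adjusted p = 0.0184).

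miR-215, which shares its seed with miR-192-5p and its cluster with Mir194-1, did not pass. Its level was 3841, 1842, 1604 and 1465 CPM in UEF sham 1 to 4, and in UEF TBI rats the lowest was 1083, the median 1593 and the highest 2152 CPM. In CPM only UEF sham 1 lay outside the range of the TBI rats. As a share of all miRNA counts UEF sham 3 did as well, at 0.0535% against 0.0974% to 0.254% in UEF TBI rats. miR-122-5p took 55.1% of the counts of UEF sham 3 and 1.58% to 22.6% in UEF TBI rats, which lowers every other share of UEF sham 3. The difference was log2 −0.41 (SE 0.42, 95% interval −1.27 to 0.46, edgeR adjusted p = 0.747).

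How much of this rested on UEF sham 3 differed between the members. Without it, miR-194-5p still passed (log2 −1.77, adjusted p = 0.00904), whereas miR-192-5p (log2 −1.29, adjusted p = 0.0827), miR-192-3p (log2 −0.96, adjusted p = 0.152) and miR-194-3p (log2 −0.63, adjusted p = 0.547) did not, leaving 1 of 5 members called, against 1.86% of 754 miRNAs. In a fit of the UEF rats alone without UEF sham 3, miR-194-5p was at log2 −1.80 and did not pass (adjusted p = 0.0690), and 0% of 751 miRNAs did. As shares of all miRNA counts, miR-194-5p took 0.195% to 0.381% in UEF sham rats and 0.0321% to 0.123% in UEF TBI rats, with no overlap. The share of miR-192-5p was 1.66% to 2.46% in UEF sham rats and 0.363% to 1.69% in UEF TBI rats, with 1 TBI rat inside the sham range. In a fit scaled by total counts, miR-194-5p (log2 −1.93, adjusted p = 0.000232) and miR-192-5p (log2 −1.34, adjusted p = 0.00550) passed, and miR-192-3p (log2 −0.89, adjusted p = 0.0640) and miR-194-3p (log2 −0.39, adjusted p = 0.638) did not. The median of all miRNAs moved by log2 0.43 under that scaling.

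Markers of other sources also differed between the UEF groups. The liver list held 7 miRNAs (miR-122, miR-3591, miR-802 and miR-148a arms). Of these, 5 were lower in UEF TBI rats, against 3.85% of 754 called. The median over the list was log2 −1.53 beside 0.01 over all 754. miR-122-5p had a log2 difference of −2.92 (SE 0.51, adjusted p = 0.000299) and miR-802-5p one of −1.53 (SE 0.26, adjusted p = 0.000299). The summed level of the list was 281146 to 1693409 CPM in UEF sham and 27933 to 260243 CPM in UEF TBI rats, without overlap. Without UEF sham 3, miR-122-5p was at log2 −1.96 (SE 0.49, edgeR adjusted p = 0.0363). In that fit 4 of the 7 were lower, against 1.86% of 754 called, with a median of log2 −0.95. The highest summed level in a UEF sham rat was then 465092 CPM. The red cell list (miR-451, miR-144 and miR-486) ranged from 44939 to 90448 CPM in UEF sham and from 81879 to 234766 CPM in UEF TBI rats. Of its 5 miRNAs 1 was called, against 3.85% of 754. This was miR-486, higher by log2 1.34 (SE 0.31, edgeR adjusted p = 0.00809), or by log2 1.25 without UEF sham 3 (edgeR adjusted p = 0.0400). The median of the list in TBI against sham was log2 0.96 at UEF, −0.37 at Monash and 1.15 at UCLA. At Monash and UCLA 0 of the 5 were called, against 0% and 0.265% of 754. The log2 ratio of miR-451 to miR-23a-3p counts, used here as a measure of hemolysis, had a median of −2.92 in UEF sham and −2.06 in UEF TBI rats. It was −2.90 in UCLA sham and −1.79 in UCLA TBI rats, and −2.87 in Monash sham and −2.58 in Monash TBI rats. By qPCR of miR-23a and miR-451, the paper reports no hemolysis in any sample sent for sequencing. By plasma absorbance, its other assay, it reports a pooled sample from Monash and a pooled sample from UCLA slightly above its limit, and none from UEF. With the ratio of counts in the model over all sites, miR-194-5p was at log2 −1.33 in TBI against sham. It did not pass (edgeR adjusted p = 0.233), and 0.531% of 754 miRNAs did. The part of hemolysis and of the miR-122-5p load in these differences was not tested beyond these fits.

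At Monash and UCLA no member passed between TBI and sham rats in edgeR. At Monash 0% of 754 miRNAs passed, with 57 at an unadjusted p below 0.05. miR-194-5p was at 634 CPM in Monash sham 1 and 1379 CPM in Monash sham 2 and was lowest of the sham rats in Monash sham 3, at 384, 688 and 639 CPM in Monash TBIN 1 to 3 and at 299 and 389 CPM in Monash TBIE 1 and 2. All but 2 TBI rats were below the lowest sham rat, and the difference was log2 −0.82 (SE 0.51, 95% interval −1.87 to 0.23, adjusted p = 0.838). miR-192-5p was at 6080, 13378 and 6004 CPM in the Monash sham rats and at 4225, 5089, 6920, 3586 and 3511 CPM in the TBI rats, a difference of log2 −0.86 (SE 0.49, adjusted p = 0.765). For miR-192-3p the groups did not overlap in CPM, but by a narrow gap. Its sham levels were 54.6, 67.0 and 64.2 CPM, and its TBI levels 38.4, 25.6, 54.2, 33.2 and 39.8 CPM. As shares of all miRNA counts the groups did overlap, because Monash TBIE 2 (0.00552%) lay above Monash sham 2 (0.00499%). The difference of log2 −0.70 (SE 0.41) did not pass (adjusted p = 0.797). miR-215 ranged most at this site, from 2261 to 5959 CPM in sham and from 510 to 3775 CPM in TBI rats (log2 −0.91, SE 0.50, adjusted p = 0.731).

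At UCLA the groups overlapped for every member. By the edgeR test 0.265% of 754 miRNAs passed. miR-194-5p was at 283, 292 and 651 CPM in UCLA sham 1 to 3, and in the 6 TBI rats the lowest was 342, the median 437 and the highest 719 CPM. The difference was log2 0.16 (SE 0.51, 95% interval −0.88 to 1.20, edgeR adjusted p = 0.928). miR-192-5p was at 2727, 2891 and 5576 CPM in UCLA sham rats and between 3372 and 6030 CPM in TBI rats (log2 0.16, SE 0.49, adjusted p = 0.928). UCLA sham 3 was the highest of its group for miR-192-5p, miR-194-5p and miR-215. The other differences at UCLA were log2 0.14 for miR-192-3p, −0.21 for miR-194-3p and −0.02 for miR-215.

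Under TMM the median of all miRNAs at UCLA was log2 0.02. Scaled by total counts, that median moved to log2 −0.47, with miR-192-5p at log2 −0.36 and miR-194-5p at log2 −0.34, so that both arms lay above the median of all miRNAs under both scalings and passed under neither.

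Whether the effect of TBI differed between the sites was tested as an interaction, which 1.06% of 754 miRNAs passed. miR-194-5p passed (adjusted p = 0.0456), and miR-192-5p (adjusted p = 0.215), miR-192-3p (adjusted p = 0.249), miR-194-3p (adjusted p = 0.421) and miR-215 (adjusted p = 0.711) did not. The interaction of miR-194-5p passed in 7 of the 29 fits that left out 1 rat and was lost in the other 22, including that without UEF sham 3 (adjusted p = 0.345). It was also lost under each of the other 4 scalings (adjusted p of 0.0508 to 0.142) and with replicate number as a block (adjusted p = 0.0846).

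**Figure D2:**
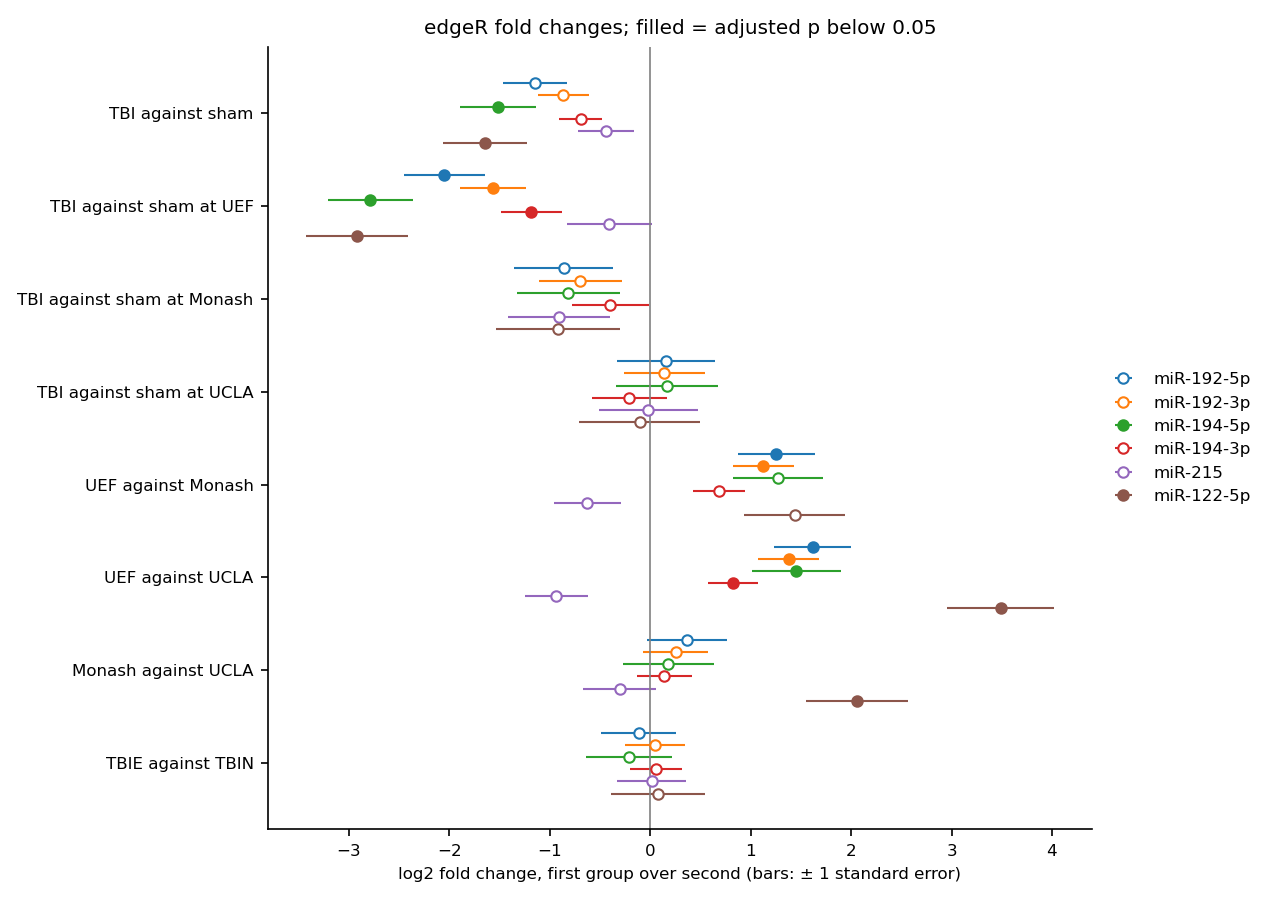
edgeR log2 fold changes of the 5 members and of miR-122-5p in 8 comparisons, first group over second, with bars of 1 standard error on each side and filled points where the adjusted p was below 0.05. The 4 members from miR-192 and miR-194 lie left of 0 in TBI against sham at UEF, from −1.18 to −2.79, and right of 0 in UEF against both other sites, whereas miR-215 lies left of 0 there.

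The second comparison, the question of the study, asked whether the level at 48 h differed between rats with and without later epilepsy. None of the 5 members passed, as 0% of 751 miRNAs did in edgeR, with 18 at an unadjusted p below 0.05 and 0 called by DESeq2. The mean of miR-192-5p was 5498 ± 2612 CPM in TBIE (n = 9) and 6275 ± 4687 CPM in TBIN rats (n = 10), a difference of log2 −0.11 (95% interval −0.88 to 0.65, adjusted p = 0.998). The mean of miR-194-5p was 507 ± 201 CPM in TBIE and 589 ± 306 CPM in TBIN rats, a difference of log2 −0.21 (95% interval −1.08 to 0.66, adjusted p = 0.998). The remaining members differed by log2 0.01 to 0.06.

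The third comparison was that of the sites. The 4 arms of miR-192 and miR-194 had their highest mean at UEF, and miR-215 had its lowest mean there. Mean levels of miR-192-5p were 16382 ± 19217 CPM for the 12 UEF rats, 6099 ± 3190 CPM for the 8 Monash rats and 4019 ± 1169 CPM for the 9 UCLA rats. Without UEF sham 3 the UEF value was 11214 ± 7324 CPM (n = 11).

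Between UEF and UCLA, 4 of 5 members were higher at UEF, against 9.32% of 751 miRNAs called in either direction. The difference was log2 1.62 for miR-192-5p (SE 0.39, edgeR adjusted p = 0.00530), log2 1.38 for miR-192-3p (adjusted p = 0.00220), log2 1.45 for miR-194-5p (adjusted p = 0.0315) and log2 0.82 for miR-194-3p (SE 0.25, adjusted p = 0.0307). miR-215 was at log2 −0.94 (SE 0.31) and did not pass (adjusted p = 0.0559). In DESeq2 it passed (log2 −0.97, adjusted p = 0.0215). With the hemolysis ratio in the model 2 members passed, the arms of miR-192, against 8.62%, and 2 of the 4 were also left without any one of the UCLA sham rats. Over single rats left out, miR-194-3p lost its call in 8 of 29 fits and miR-194-5p in 4. The mean of miR-215 was 1829 ± 699 CPM in UEF, 2938 ± 1754 CPM in Monash and 3438 ± 2009 CPM in UCLA, so that the mean in UCLA was 188% of that in UEF.

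Between UEF and Monash, 2 of 5 members were higher at UEF in edgeR, against 9.99% called, and 3 in DESeq2, against 14.7%. Those in edgeR were miR-192-5p (log2 1.26, adjusted p = 0.0389) and miR-192-3p (log2 1.12, adjusted p = 0.0228), and in edgeR miR-194-5p, the further member in DESeq2 (adjusted p = 0.0249), lay at log2 1.28 (SE 0.45, adjusted p = 0.0628), miR-194-3p at log2 0.68 (adjusted p = 0.0849) and miR-215 at log2 −0.63 (adjusted p = 0.225). Between Monash and UCLA, where 5.46% of miRNAs passed, 0 members did in edgeR, none at an unadjusted p below 0.05 and none in DESeq2, which called 8.29%, with differences of log2 −0.31 for miR-215 to log2 0.36 for miR-192-5p. miR-122-5p was 2.05 higher on the log2 scale in Monash than in UCLA (adjusted p = 0.0130).

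The fitted differences of UEF from both other sites in the 4 arms of miR-192 and miR-194 had smaller values among injured rats than over all rats, and their dependence on injury is the interaction given above. In TBI rats alone, UEF exceeded UCLA by log2 0.95 in miR-192-5p (adjusted p = 0.115) and by log2 0.54 in miR-194-5p (adjusted p = 0.387), and no member passed in either pair with UEF, against 5.33% of 750 miRNAs called between UEF and UCLA and 0% between UEF and Monash. In sham rats alone 3 members passed between UEF and UCLA, against 4.86% of 741 miRNAs, and 1 between UEF and Monash, against 4.72%. Without UEF sham 3, all rats included otherwise, 3 members passed between UEF and UCLA, against 9.47%, and 1 between UEF and Monash, against 7.33%. Of the other lists, the white cell and platelet list (miR-223, miR-142 and miR-150) had 3 of 6 miRNAs lower at UEF than at Monash, against 9.99% of 751 called. In that pair the muscle list had 1 of 13 higher at UEF and the liver list 2 of 7. For UEF against UCLA, where 9.32% were called, the white cell and platelet list had 1 of 6 lower and the muscle list 4 of 13 higher. The liver list had 4 of 7 higher there, with a median of log2 1.26 beside 0.07 over all miRNAs. For Monash against UCLA, where 5.46% were called, these lists had 0 of 6 called, 3 of 13 higher and 2 of 7 higher.

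Lists that hold other features of the family were fixed by stem. The epithelial list (miR-141, the miR-200 family, miR-375, miR-203 and miR-31a) shares organs with miR-192 and miR-215. Of its 17 miRNAs, 0 passed in TBI against sham over all sites in edgeR, against 1.20% of 751 (2 at an unadjusted p below 0.05, median log2 −0.11). In TBI against sham at UEF 1 was lower, namely miR-203b-3p (log2 −1.12, edgeR adjusted p = 0.0444), against 3.85% of 754 called. By site, 2 were higher at UEF than at UCLA, against 9.32% of 751 called, and 1 was higher than at Monash, against 9.99%. The p53-responsive list (6 miR-34 arms) had 0 called in each of the 8 comparisons in edgeR, with a median of log2 −0.34 in TBI against sham at UEF, where 2 had an unadjusted p below 0.05. No miRNA of either list, 17 and 6, was at 0 in all rats. Of the 6 miR-34 arms, 1 had a median below 10 counts.

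The fourth comparison was the correlation between rats with miR-122-5p, computed on log2 CPM. Every value of a rat shares a library, its depth and its TMM factor. Over the 29 rats, Pearson's r was 0.89 and Spearman's rho 0.82 for miR-192-3p, 0.86 and 0.76 for miR-192-5p, 0.80 and 0.64 for miR-194-5p, and 0.70 and 0.56 for miR-194-3p. Over 20 relations the adjusted permutation p was 5e-05 for r of the first 3 and 8.57e-05 for miR-194-3p. The unadjusted permutation p of the first 3 was 1e-05, the smallest that 100000 resamples allowed. miR-215 had an r of −0.27 and a rho of −0.32 (adjusted permutation p = 0.298 and 0.180). Without UEF sham 2 and UEF sham 3, the 2 rats farthest from the median of miR-122-5p, r was 0.82, 0.76, 0.67 and 0.47 in the same order and −0.23 for miR-215.

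**Figure D3:**
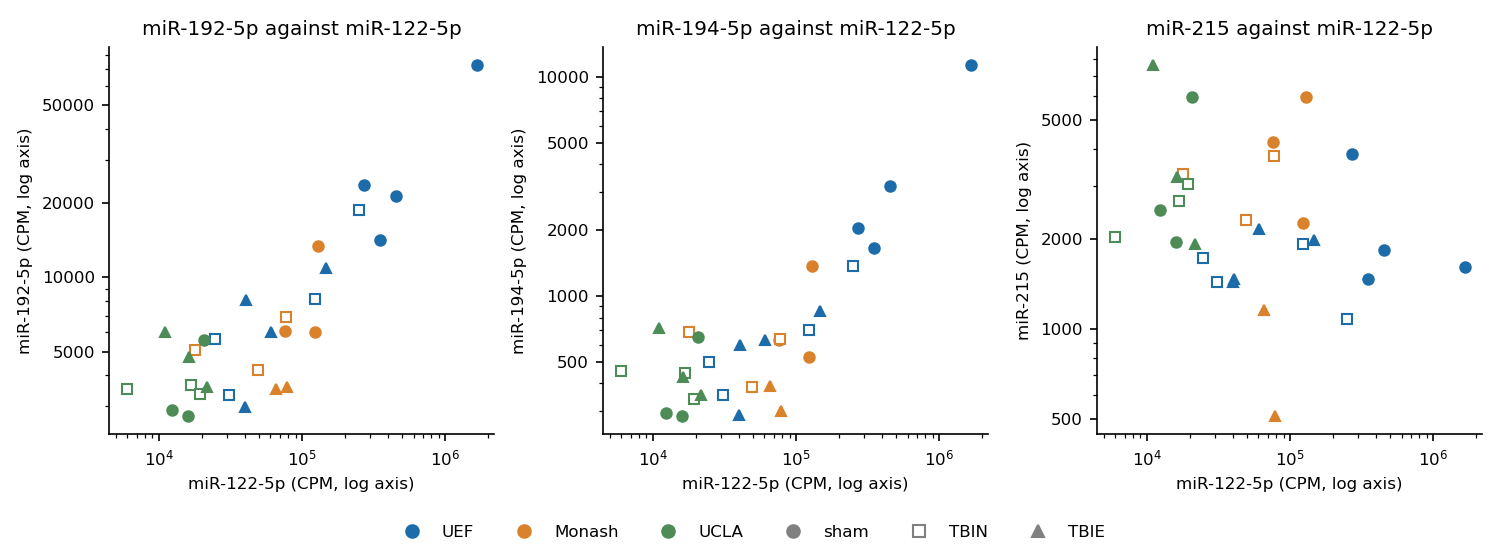
CPM of miR-192-5p, miR-194-5p and miR-215 against CPM of miR-122-5p in each of the 29 rats, on log axes. Colours are sites, circles sham, open squares TBIN and triangles TBIE rats. The UEF points rise along a line for miR-192-5p and miR-194-5p (r 0.94 and 0.95), the UCLA points do not (0.05 and −0.16), and miR-215 has no such line.

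The relation differed in value between the sites, which was not itself tested. At UEF (n = 12), r was 0.94 for miR-192-5p, 0.96 for miR-192-3p and 0.95 for miR-194-5p (adjusted permutation p = 6.67e-05, 6.67e-05 and 5e-05). In the same order rho was 0.93, 0.90 and 0.97 (adjusted permutation p = 0.00035, 0.0008 and 6.67e-05). For miR-194-3p r was 0.69 (adjusted permutation p = 0.0226), whereas its rho of 0.50 did not pass (adjusted permutation p = 0.18). Its r fell to 0.35 without UEF TBIN 2 and UEF sham 3, so this relation rested on those rats. UEF sham and UEF TBI rats did not overlap in miR-122-5p. Among the 8 UEF TBI rats alone, r was 0.83 for miR-192-5p (exact permutation p = 0.0101), 0.98 for miR-192-3p (exact permutation p = 9.92e-05), 0.85 for miR-194-5p (exact permutation p = 0.00553) and −0.17 for miR-194-3p.

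At Monash (n = 8), the 3p arms passed by r and the 5p arms did not. By rho miR-194-3p passed (0.83, exact permutation, adjusted p = 0.0384) and miR-192-3p did not (0.74, exact permutation, adjusted p = 0.102). r was 0.86 for miR-192-3p (exact permutation, adjusted p = 0.00595) and 0.94 for miR-194-3p (adjusted p = 0.0057), against 0.42 for miR-192-5p (adjusted p = 0.457) and 0.16 for miR-194-5p (adjusted p = 0.899). Without Monash sham 2 and Monash TBIN 2, r of miR-192-3p was 0.66 (exact permutation p = 0.167) and that of miR-194-3p 0.72 (exact permutation p = 0.203) over the 6 rats left, neither past the threshold. With 1 rat left out at a time, each call was lost without Monash TBIN 2 (r of 0.76 and 0.75) and kept otherwise. At UCLA (n = 9), r lay between −0.27 and 0.09 for the 5 members, and none passed (adjusted exact permutation p of at least 0.775). UCLA rats also covered the smallest range of miR-122-5p, 5963 to 21613 CPM.

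Set among all 750 other miRNAs by rho with miR-122-5p over the 29 rats, whose median was −0.01, miR-192-3p ranked 7, miR-192-5p ranked 10, miR-194-5p ranked 20, miR-194-3p ranked 29 and miR-215 ranked 679. With site and outcome means removed, the ranks were 3 for miR-192-3p, 5 for miR-192-5p, 11 for miR-194-5p and 468 for miR-215, whereas miR-194-3p fell back to a rho of 0.26, with 121 miRNAs above it.

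**Figure D4:**
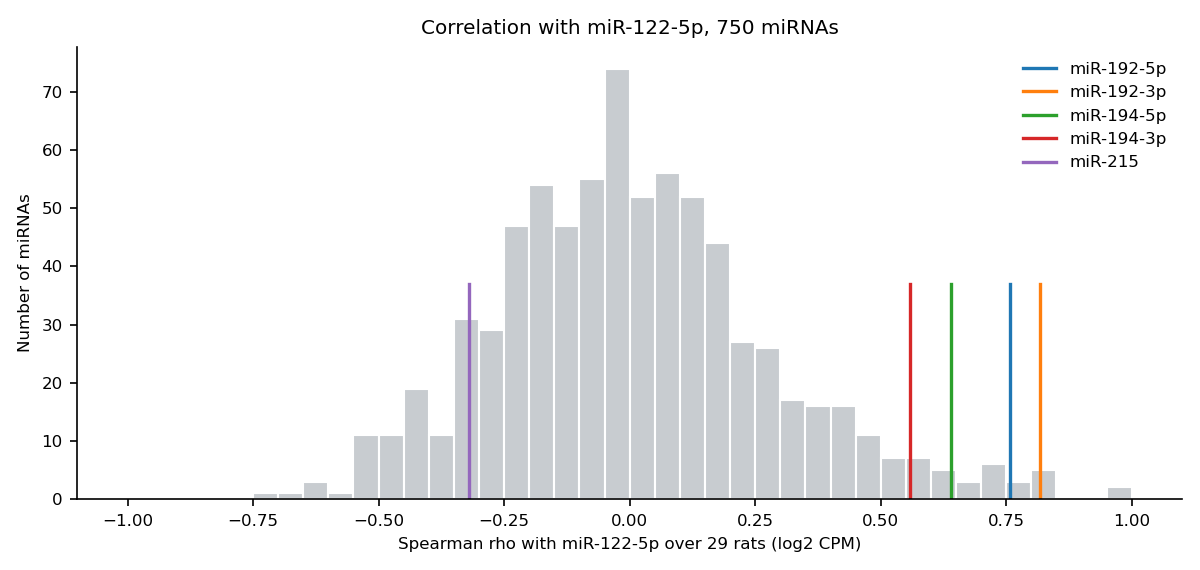
Number of miRNAs by their Spearman rho with miR-122-5p over 29 rats, in bins of rho, with the 5 members as coloured lines. The 4 arms of miR-192 and miR-194 lie in the right tail, from 0.56 to 0.82, and miR-215 lies at −0.32, left of the median of −0.01.

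Within the family, miR-192-5p and miR-194-5p were each other's nearest miRNA of the 750 by rho across the 29 rats (0.94, and 0.92 with site and outcome means removed). After miR-194-5p, those nearest to miR-192-5p were miR-22-3p (0.86) and miR-101b-3p (0.86). Those nearest to miR-194-5p after miR-192-5p were miR-192-3p (0.78) and miR-101b-3p (0.78), and with means removed miR-101b-3p (0.82) and miR-148a-3p (0.78). The arms of one hairpin were less alike in the case of miR-194, with a rho of 0.27 between miR-194-5p and miR-194-3p against 0.84 between miR-192-5p and miR-192-3p. miR-194-3p had at most 154 counts in a rat, and miR-194-5p has 2 source hairpins.

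miR-215 was unlike the other members over all rats, with a rho of 0.09 to miR-192-5p and 0.20 to miR-194-5p. Its 3 nearest miRNAs were miR-155-5p (0.66), miR-140-5p (0.65) and miR-140-3p (0.64). With site and outcome means removed they were instead miR-300-3p, miR-144-5p and miR-431 (0.58 each). The rho of miR-215 was then 0.33 to miR-192-5p and 0.26 to miR-194-5p. Within sites the values differed. This set of 16 relations was computed after the values of miR-215 had been seen. At UEF, r of miR-215 was 0.19 with miR-192-5p and 0.16 with miR-194-5p. At Monash (n = 8) it was 0.81 with miR-192-5p (exact permutation, adjusted p = 0.0768) and 0.87 with miR-194-5p (adjusted p = 0.0373). Without Monash TBIE 1 and Monash TBIE 2, farthest from the median of miR-215, these were 0.82 and 0.90 (exact permutation, both adjusted p = 0.244, 6 rats). At UCLA (n = 9) r was 0.88 and 0.84 (exact permutation, both adjusted p = 0.0373), and without UCLA sham 3 and UCLA TBIE 2, the rats highest in miR-215 there, it was 0.54 and 0.26 (exact permutation, adjusted p = 0.856 and 0.910). By Spearman's rho none of these passed, with 0.88 and 0.83 at Monash (exact permutation, adjusted p = 0.116 and 0.123) and 0.73 and 0.63 at UCLA (exact permutation, adjusted p = 0.166 and 0.304).

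**Figure D5:**
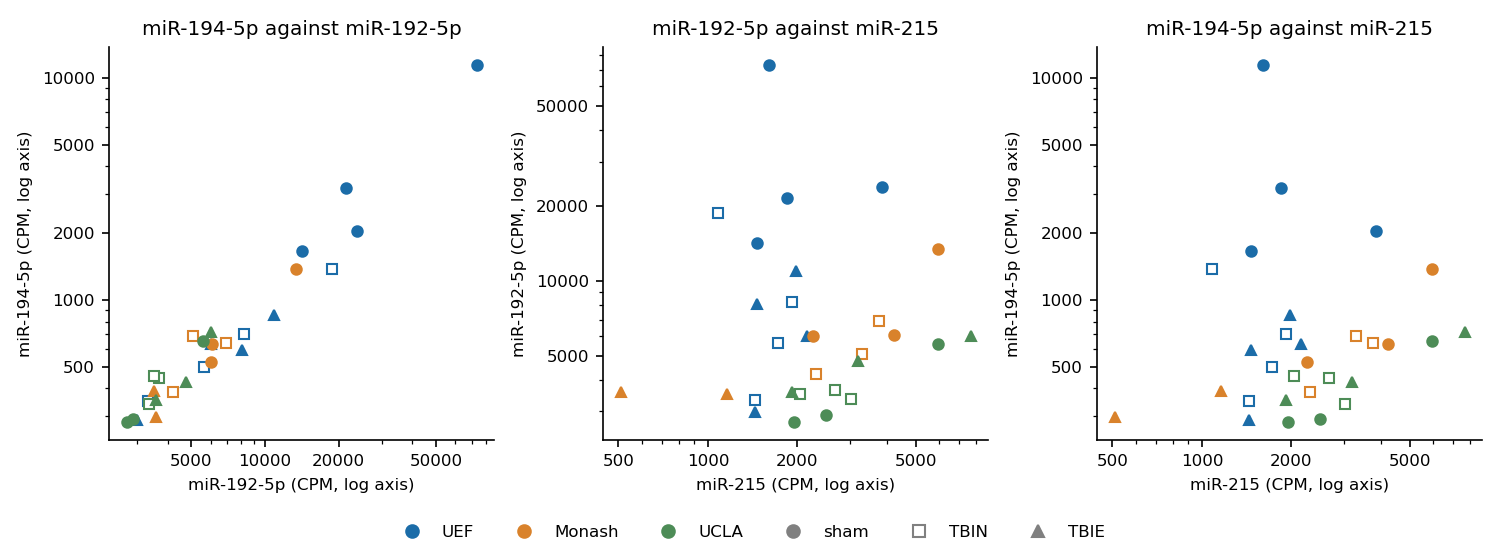
CPM of miR-194-5p against miR-192-5p, and of miR-192-5p and miR-194-5p against miR-215, in each of the 29 rats on log axes, with colours for sites and symbols for outcome. miR-192-5p and miR-194-5p fall along 1 line over all sites (rho 0.94), whereas against miR-215 the UEF rats lie above and to the left of most UCLA rats.

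Ratios of 2 counts of 1 library do not depend on how that library is scaled. Of 56 tests over 7 ratios and 8 comparisons, 8 passed and 14 had an unadjusted p below 0.05. The geometric mean over 29 rats was 9.83 for miR-192-5p over miR-194-5p, 121 for miR-192-5p over miR-192-3p, 34.8 for miR-194-5p over miR-194-3p and 2.90 for miR-192-5p over miR-215. The ratio of miR-192-5p to miR-194-5p varied least, between 2.68 and 3.77 on the log2 scale.

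The 8 that passed all set UCLA against another site and all involved miR-122-5p or miR-215. Relative to miR-122-5p, miR-192-5p was lower in UEF than in UCLA by 1.69 and in Monash than in UCLA by 1.68 on the log2 scale (exact permutation test, adjusted p = 0.00143 and 0.00729). For miR-194-5p relative to miR-122-5p the differences were log2 −1.83 and −1.80 (exact permutation test, adjusted p = 0.000762 and 0.0125). miR-192-5p relative to miR-215 had a geometric mean of 6.19 in UEF, 2.36 in Monash and 1.27 in UCLA, and both differences from UCLA passed (log2 2.28 and 0.89, exact permutation test, adjusted p = 0.00102 and 0.0150). miR-215 relative to miR-122-5p was lower in UEF and in Monash than in UCLA (log2 −3.97 and −2.57, exact permutation test, adjusted p = 0.000762 and 0.00415).

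At UEF none of the 7 ratios passed between 8 TBI and 4 sham rats after adjustment, and 5 had an unadjusted p below 0.05. miR-192-5p over miR-194-5p was 3.51 ± 0.21 on the log2 scale in TBI and 3.01 ± 0.40 in sham rats (exact permutation p = 0.0222, adjusted p = 0.113). miR-215 over miR-122-5p differed by log2 2.66 (exact permutation p = 0.00808, adjusted p = 0.0503), miR-192-5p over miR-215 by log2 −1.67 (exact permutation p = 0.0263, adjusted p = 0.113), miR-194-5p over miR-194-3p by log2 −1.42 (exact permutation p = 0.0263, adjusted p = 0.113) and miR-192-5p over miR-122-5p by log2 0.99 (exact permutation p = 0.0384, adjusted p = 0.154). Neither at Monash nor at UCLA did any ratio have an unadjusted p below 0.05 between TBI and sham rats, with adjusted p of at least 0.857 and 0.688.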

How the data were processed

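Small RNA libraries from plasma of 29 rats were analysed from the deposited table, which gives raw counts, not normalized, for 754 miRNAs in each rat. Per the methods, the authors removed adapters (cutadapt), aligned to Rnor_6.0 (bowtie), took miRNA names from miRBase and tested differences with DESeq2. The table is named as raw reads, and whether reads sharing a molecular identifier were merged is not given in the sources used here. All columns were used (0 left out), and 1 further rat that the study excluded was not analysed here. Samples of a group were separate rats, and the counts of each pair differed by more than sampling noise (chi-square per degree of freedom of at least 75.3).

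Counts were tested in edgeR 4.0.16 (R 4.3.3, limma 3.58.1) with filterByExpr (minimum count 10), TMM scaling and quasi-likelihood F tests, with site and outcome as terms, and in a second fit with a mean for each site and injury. P-values were adjusted by Benjamini-Hochberg over all miRNAs tested at a threshold of 0.05. log2 CPM used a prior count of 2. Correlations and ratios used two-sided permutation tests, exact where listed in full and otherwise with 100000 resamples (scipy 1.17.1 with numpy 2.4.6 in Python 3.11.15). Correlations were adjusted over 20 relations and ratios over 56 tests. Correlations of a member with miR-215 were adjusted over 16 relations. Scripts were tested on simulated data. Intervals cover 95%.

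Named miRNAs were the members, miR-122-5p, the 3 nearest to each 5p member and to miR-215 by rho, and at most 2 called per marker list and comparison. Members and lists were chosen with earlier results of these data known. Alternatives were DESeq2 1.42.0, other scalings and filters, hemolysis and replicate number as terms, subsets of rats and each rat left out. The analyses of miR-215 ratios and correlations, of UEF rats alone, of other scalings by site and of marker lists without UEF sham 3 were added after seeing the data.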

Additional observations from a re-analysis of the deposited data

Results flagged for a closer look

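A rat was singled out where its gap to the next rat of its group was large against the range of the group. Of 40 sets of a member and a group, 14 gave such a rat. The rule would give about 2 (1 in 20) for normal values with a common mean in each group. It was applied to CPM rather than log2 CPM, most groups join sites or outcomes, and the sets share rats and members. The 14 therefore cannot be read against that rate, and the rule serves only to point at rats.

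UEF sham 3 accounted for 6 of them. Among all sham rats it had the highest level of miR-192-5p (73233 CPM), miR-192-3p (392 CPM), miR-194-5p (11426 CPM) and miR-194-3p (88.5 CPM), and it stood apart among the 4 UEF sham rats in miR-192-5p (73233 CPM) and miR-194-5p (11426 CPM) as well. Its miR-215 level, at 1604 CPM, lay within the range of the other UEF sham rats. As a share of all miRNA counts, its miR-215 was the lowest of all rats, at 0.0535%, in a library where miR-122-5p took 55.1% and so lowered every other share. The other UEF sham rats had 0.150% to 0.397%. UEF TBIN 4 was the highest of the TBIN rats in miR-192-5p (18773 CPM), miR-192-3p (132 CPM) and miR-194-5p (1373 CPM). In CPM it also had the lowest miR-215 level at UEF. UEF TBIE 1 was the highest of the TBIE rats in miR-192-3p (99.2 CPM). Monash sham 2 was the highest of the Monash rats in miR-192-5p (13378 CPM) and miR-194-5p (1379 CPM).

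miR-215 set other rats apart. UCLA TBIE 2 was the highest of the TBIE rats (7649 CPM), and UEF sham 1 was the highest of the UEF sham rats (3841 CPM). The effect of TBI on miR-194-5p differed between sites in the interaction test (edgeR adjusted p = 0.0456), a call kept in 7 of 29 fits that left out 1 rat and lost under each of the other 4 scalings.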

How the results depend on the processing

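The values below are log2 differences unless named otherwise, and the cause of a change was not tested. Alternatives of scaling within sites, of UEF rats alone and of the ratios and correlations with miR-215 were chosen after seeing the data, as were the values of miR-122-5p, the marker lists and the UEF means without UEF sham 3. Scaling moved the median of all miRNAs by over 0.1: in TBI against sham at UEF to 0.43 (total counts), −0.13 (total less miR-122-5p) and 0.34 (miR-28-3p as library size), at UCLA to −0.47, −0.48 and −0.31, at Monash to 0.18 (total counts) and 0.11 (total less miR-122-5p), and with total less miR-122-5p to −0.17 in TBI against sham and to 0.18, 0.36 and 0.16 in UEF against Monash, UEF against UCLA and Monash against UCLA. With miR-28-3p it was 0.13 in UEF against Monash, 0.10 in UEF against UCLA and 0.14 in TBIE against TBIN.

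The number of miRNAs called in TBI against sham was 9 (5 higher), against 24 in DESeq2 (9 higher), 23 with total less miR-122-5p (2 higher), 17 with 10 counts in every rat, 4 with the hemolysis ratio, 14 without a site term, 0 without UEF, 21 without Monash, 14 without UCLA, 15 in UEF rats alone, 0 in those without UEF sham 3 and 1 (without UEF sham 4) to 16 (without Monash sham 2) over single rats left out. Between UEF and Monash it was 75 (33 higher), against 33 with total counts (9 higher), 28 with total less miR-122-5p, 18 with miR-28-3p, 35 in sham rats alone, 0 in TBI rats alone and 39 to 117 over single rats left out. Between UEF and UCLA it was 70 (39 higher), against 77 with total counts (35 higher), 106 with total less miR-122-5p (86 higher), 40 in TBI rats alone and 36 in sham rats alone, and between Monash and UCLA 41 (23 higher), against 56 with total less miR-122-5p (41 higher), 23 in TBI rats alone and 21 in sham rats alone. At UEF 29 were called (10 higher), against 25 with DESeq2 size factors (6 higher), 46 with total counts (38 higher), 41 with miR-28-3p (31 higher), 43 with total less miR-122-5p (4 higher), 14 without UEF sham 3 and 56 without UEF sham 1. At UCLA 2 were called, against 9 with total counts, 11 with total less miR-122-5p and 4 with DESeq2 size factors. The interaction called 8, against 2 with DESeq2 size factors, 15 with total counts, 1 with total less miR-122-5p and 0 with the block below or without UEF sham 3. Depth limited miR-194-3p most, with 21 to 154 counts per rat.

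In TBI against sham, members gained a call as follows. miR-192-5p was at −0.88 with total counts, −1.18 with total less miR-122-5p, −0.89 with miR-28-3p, −1.19 with 10 counts in every rat, −1.43 without a site term, −1.55 without UCLA, −2.06 in UEF rats alone and −1.19 in DESeq2. miR-192-3p was at −0.94 with total less miR-122-5p, −0.92 with 10 counts in every rat, −1.16 without UCLA and −0.91 in DESeq2. miR-194-3p was at −0.75 with 10 counts in every rat and −0.74 in DESeq2. miR-194-5p lost its call with the hemolysis ratio (−1.33), without UEF (−0.36) and in UEF rats alone without UEF sham 3 (−1.80).

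At UEF, calls were lost by miR-192-3p with total counts (−0.89) and by miR-194-3p with total counts (−0.39), total less miR-122-5p (−1.03) and miR-28-3p (−0.45). At UCLA the sign turned with total counts, total less miR-122-5p and miR-28-3p for miR-192-3p (−0.42, −0.43 and −0.25), miR-192-5p (−0.36, −0.37 and −0.20) and miR-194-5p (−0.34, −0.35 and −0.18), each at or above the median of all miRNAs under that scaling, so that the turn of sign went with the common shift. The adjusted p of the interaction of miR-194-5p was 0.0629 with DESeq2 size factors, 0.115 with total counts, 0.0508 with total less miR-122-5p and 0.142 with miR-28-3p.

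Between UEF and Monash, calls were lost in TBI rats alone by miR-192-3p (0.79) and miR-192-5p (0.79) and in sham rats alone by miR-192-5p (1.93), and miR-194-5p gained one with total less miR-122-5p (1.25), 10 counts in every rat (1.31) and DESeq2 (1.26). Between UEF and UCLA, calls were lost in TBI rats alone by miR-192-3p (0.87), miR-192-5p (0.95), miR-194-3p (0.53) and miR-194-5p (0.54), by miR-194-3p with total counts (0.73), miR-28-3p (0.77), the hemolysis ratio (0.74) and in sham rats alone (1.43), and by miR-194-5p with the hemolysis ratio (1.34), and miR-215 gained one in DESeq2 (−0.97). The sign of miR-215 turned between Monash and UCLA in sham rats alone (0.26). In TBIE against TBIN, signs near 0 turned for miR-194-3p with the hemolysis ratio (−0.0071) and for miR-215 with total less miR-122-5p (−0.014), 10 counts in every rat (−0.015) and TBI rats alone (−0.080).

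Replicate numbers did not pair the rats: over 103 same-numbered pairs across groups the median correlation of deviations was −0.0047 (−0.42 to 0.40, 21 over 0.1). With replicate number as a block, miR-194-5p in TBI against sham was at −1.34 (adjusted p = 0.0921) with 4 miRNAs called, its interaction had an adjusted p of 0.0846, UEF against Monash was at 1.09 for miR-192-3p and 1.22 for miR-192-5p with 31 called, miR-215 in TBIE against TBIN was at −0.015, and no other call of a member changed.

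Leaving out each rat in turn gave these ranges. In TBI against sham they were −1.28 to −0.75 for miR-192-5p (gained without UEF TBIN 4, UCLA sham 1 or 2 or UCLA TBIE 2), −0.95 to −0.56 for miR-192-3p (gained without UEF TBIN 4 or UCLA sham 1) and −1.69 to −0.94 for miR-194-5p, whose call was lost in 11 of 29 fits, namely without UEF sham 2, 3 or 4, UEF TBIN 1, 2 or 3, any UEF TBIE rat or Monash TBIN 1 (adjusted p of 0.0514 to 0.116). At UEF they were −2.36 to −1.29 for miR-192-5p and −1.81 to −0.96 for miR-192-3p, both losing the call without UEF sham 3 alone, −1.35 to −0.63 for miR-194-3p, lost in 7 fits (without UEF sham 2 or 3, UEF TBIN 2, Monash sham 2, Monash TBIN 3 or UCLA TBIE 1 or 3), and −0.56 to 0.12 for miR-215. The interaction of miR-194-5p ranged from an adjusted p of 0.0226 to 0.345 and was kept in 7 fits, those without UEF sham 1 or 4, UEF TBIN 4, Monash sham 2, Monash TBIN 1, Monash TBIE 1 or UCLA sham 3. At UCLA they were −0.024 to 0.57 for miR-192-5p, −0.035 to 0.38 for miR-192-3p, −0.043 to 0.67 for miR-194-5p and −0.43 to 0.63 for miR-215. Between UEF and Monash they were 0.90 to 1.37 for miR-192-5p (lost without UEF sham 1 or 3, UEF TBIN 4, UEF TBIE 1, Monash sham 1 or 3 or Monash TBIN 1 or 2) and 0.80 to 1.40 for miR-194-5p (gained without UEF TBIN 1 or 2), and between UEF and UCLA 0.65 to 0.89 for miR-194-3p (lost without UEF sham 3, UEF TBIN 1 or 3, any one UCLA sham rat, UCLA TBIN 1 or UCLA TBIE 1), 1.10 to 1.65 for miR-194-5p (lost without any one UCLA sham rat or UCLA TBIN 3) and −1.04 to −0.61 for miR-215 (gained without UEF sham 1, Monash sham 2, Monash TBIE 1, UCLA sham 1 or 2 or UCLA TBIE 1). In TBIE against TBIN they were −0.26 to 0.050 for miR-192-5p, −0.042 to 0.19 for miR-192-3p, −0.023 to 0.14 for miR-194-3p and −0.29 to 0.22 for miR-215. The number of ratio tests past the threshold ranged from 8 to 10.

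The correlations with miR-122-5p that changed sign did so within a site, and none of them passed the threshold under any of these settings. With total less miR-122-5p, total counts and miR-28-3p, r of miR-215 at Monash was −0.20, −0.25 and −0.14, and r of miR-194-3p at UCLA 0.20, 0.18 and 0.031. r of miR-215 at UEF was −0.18 with total counts and −0.21 with miR-28-3p, r of miR-194-5p at Monash was −0.089 with total counts, and r of miR-194-5p at UCLA was 0.10 with total less miR-122-5p, 0.085 with total counts and 0.50 without the 2 rats farthest from the median. Over single rats left out, r spanned −0.040 to 0.23 (miR-215 at UEF), −0.29 to 0.65 (miR-194-5p at Monash), −0.23 to 0.32 (miR-215 at Monash), −0.12 to 0.27, −0.067 to 0.25 and −0.38 to 0.0049 (miR-192-5p, miR-192-3p and miR-194-5p at UCLA) and −0.33 to 0.39 (miR-215 at UCLA).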
